A study of Rattus norvegicus with 47 samples.

Results

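The genes of cholesterol synthesis were followed through rat liver foci, nodules, adenomas and carcinomas and the liver around them. The list held 8 symbols, Hmgcs1, Sqle, Fdft1, Fdps, Idi1, Lss, Dhcr7 and Insig1, and its members were those that the probe-to-gene table pairs with a probe set of their own. These were 7 genes with 10 probe sets, of 14217 genes and 31042 probe sets on the array. Hmgcs1 was not analysed here, and the measured members bear on synthesis and its control.

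The rats were male Wistar animals of a Han-Wistar stock that received 1 dose of the liver carcinogen N-nitrosomorpholine (250 mg/kg) at an age of 4 weeks, and after 3 weeks of recovery took phenobarbital (50 mg/kg per day), a tumour promoter in rat liver, in the drinking water for up to 17 months. Lesions and surrounding liver alike carried both agents, so no array of a rat without them entered a comparison. The frozen groups were surrounding liver (n = 7, 5 rats), nodules (n = 5, 3 rats, called minitumours in their source names), adenomas (n = 6, 2 rats), carcinomas without a mutation label (n = 4, 3 rats, "unlabelled carcinomas" below) and carcinomas labelled as mutated in beta-catenin (n = 4, 3 rats, "beta-catenin carcinomas" below). The formalin-fixed, paraffin-embedded (FFPE) groups, taken by laser microdissection, were surrounding liver (n = 4, 4 rats), foci (n = 9, 3 rats) and adenomas (n = 5, 3 rats). Several lesions of a group came from the same rat, and p-values measure the spread between lesions after an adjustment for the rat.

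Cells make cholesterol from acetyl-CoA through mevalonate, isoprenoid units, squalene and lanosterol. Idi1 and Fdps work in the isoprenoid stage, Fdft1 and Sqle make and oxidize squalene, Lss closes the sterol rings, and Dhcr7 catalyses a late reduction on the way to cholesterol. The transcription factor SREBP-2, encoded by Srebf2, drives these genes when sterols are scarce, and Insig1, itself such a target, holds the SREBP carrier in the endoplasmic reticulum when sterols are plentiful. Hepatocytes are a main site of this synthesis.

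Promoter windows show the letters ahead of the members' start sites. RefSeq entries of the build GRCr8 matched 5 of the 7 members (Fdps, Idi1, Lss, Dhcr7 and Insig1), and Sqle and Fdft1 were not matched. The windows hold the 250 bases before the annotated start, 5′ to 3′ along the gene, and capitals mark each match to CCAAT, the box bound by the factor NF-Y, on either strand (ATTGG on the other strand). The first 3 are members that were lower in beta-catenin carcinomas, and Dhcr7, the fourth printed, was not called in any comparison. Lss, whose window is not printed, was not called in any comparison either and held a match.

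Fdps, chr2:176804817-176805066, minus strand: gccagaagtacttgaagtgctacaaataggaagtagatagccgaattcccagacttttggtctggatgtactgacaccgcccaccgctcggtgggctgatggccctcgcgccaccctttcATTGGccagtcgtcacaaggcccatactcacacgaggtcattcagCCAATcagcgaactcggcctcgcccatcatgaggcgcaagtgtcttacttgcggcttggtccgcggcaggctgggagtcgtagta

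Idi1, chr17:66547525-66547774, minus strand: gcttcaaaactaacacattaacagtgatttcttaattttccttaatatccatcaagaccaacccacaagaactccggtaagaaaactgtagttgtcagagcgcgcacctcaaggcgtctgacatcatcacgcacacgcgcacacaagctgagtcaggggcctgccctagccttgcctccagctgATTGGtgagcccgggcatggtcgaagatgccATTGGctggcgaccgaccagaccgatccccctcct

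Insig1, chr4:8057770-8058019, minus strand: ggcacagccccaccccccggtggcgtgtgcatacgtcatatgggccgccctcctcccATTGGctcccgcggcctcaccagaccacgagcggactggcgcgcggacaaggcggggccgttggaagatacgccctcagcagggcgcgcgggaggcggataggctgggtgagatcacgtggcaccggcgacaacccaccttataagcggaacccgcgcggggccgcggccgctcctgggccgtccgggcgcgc

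Dhcr7, chr1:208444184-208444433, plus strand: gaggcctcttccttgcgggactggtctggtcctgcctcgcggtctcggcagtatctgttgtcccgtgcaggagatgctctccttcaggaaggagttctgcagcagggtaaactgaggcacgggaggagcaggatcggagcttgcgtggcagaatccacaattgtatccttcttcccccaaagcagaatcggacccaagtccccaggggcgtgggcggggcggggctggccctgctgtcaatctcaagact

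CCAAT was found in 4 of the 5 member windows, among them Lss with a single match, and in 34.0% of 33469 windows of that length. Fdps held 2 matches and Idi1 2, Insig1 held 1 and Dhcr7 none. Of 12 other sterol synthesis genes with an entry, 10 held a match. TCACNCCAC, a spelling of the sterol response element, was found in 0 of the 5 windows and in 0.974% of all, which says only that these letters are not in these bases. The 2 motifs do not overlap in their letters, and a match is a description of the sequence.

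Values are log2 probe set summaries as deposited, with array medians of 5.49 to 5.59 on frozen and 5.58 to 5.68 on FFPE samples. The array number limits the precision, since arrays give no counts. Genes that mark hepatocytes, such as Alb and Apoa1, averaged 13.31 to 14.07 per array on frozen and 13.39 to 13.72 on FFPE samples, over 7 of 8 listed genes. In bulk tissue, fewer cells of a type and less RNA per cell cannot be told apart. The beta-catenin label was checked against Glul, Axin2, Lgr5 and Tbx3, which this pathway raises in liver. Glul was 12.96 to 13.32 in beta-catenin carcinomas 2, 3 and 4 and 9.26 in beta-catenin carcinoma 1, against 9.56 and 10.39 in unlabelled carcinomas 2 and 4 and 13.02 and 12.69 in unlabelled carcinomas 1 and 3. Axin2, Lgr5 and Tbx3 put the same 3 arrays (the library labelled beta-catenin carcinoma 1, and unlabelled carcinomas 1 and 3) on the other side of their label. Nkd1, a further target, did not separate the arrays this way (5.698 and 6.17 in unlabelled carcinomas 2 and 4, 6.05 in beta-catenin carcinoma 2 and 6.11 in beta-catenin carcinoma 1). The source name of beta-catenin carcinoma 1 does not name the mutation. All arrays were kept under their labels. Member results against surrounding liver and between carcinoma groups are also given without these 3 arrays, an alternative chosen after seeing the data. Carcinoma results of the other gene lists and of the markers are given with all arrays only. Over all genes, this alternative called 473 genes in unlabelled carcinomas against surrounding liver, where 1620 were called with all arrays.

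**Figure D1:**
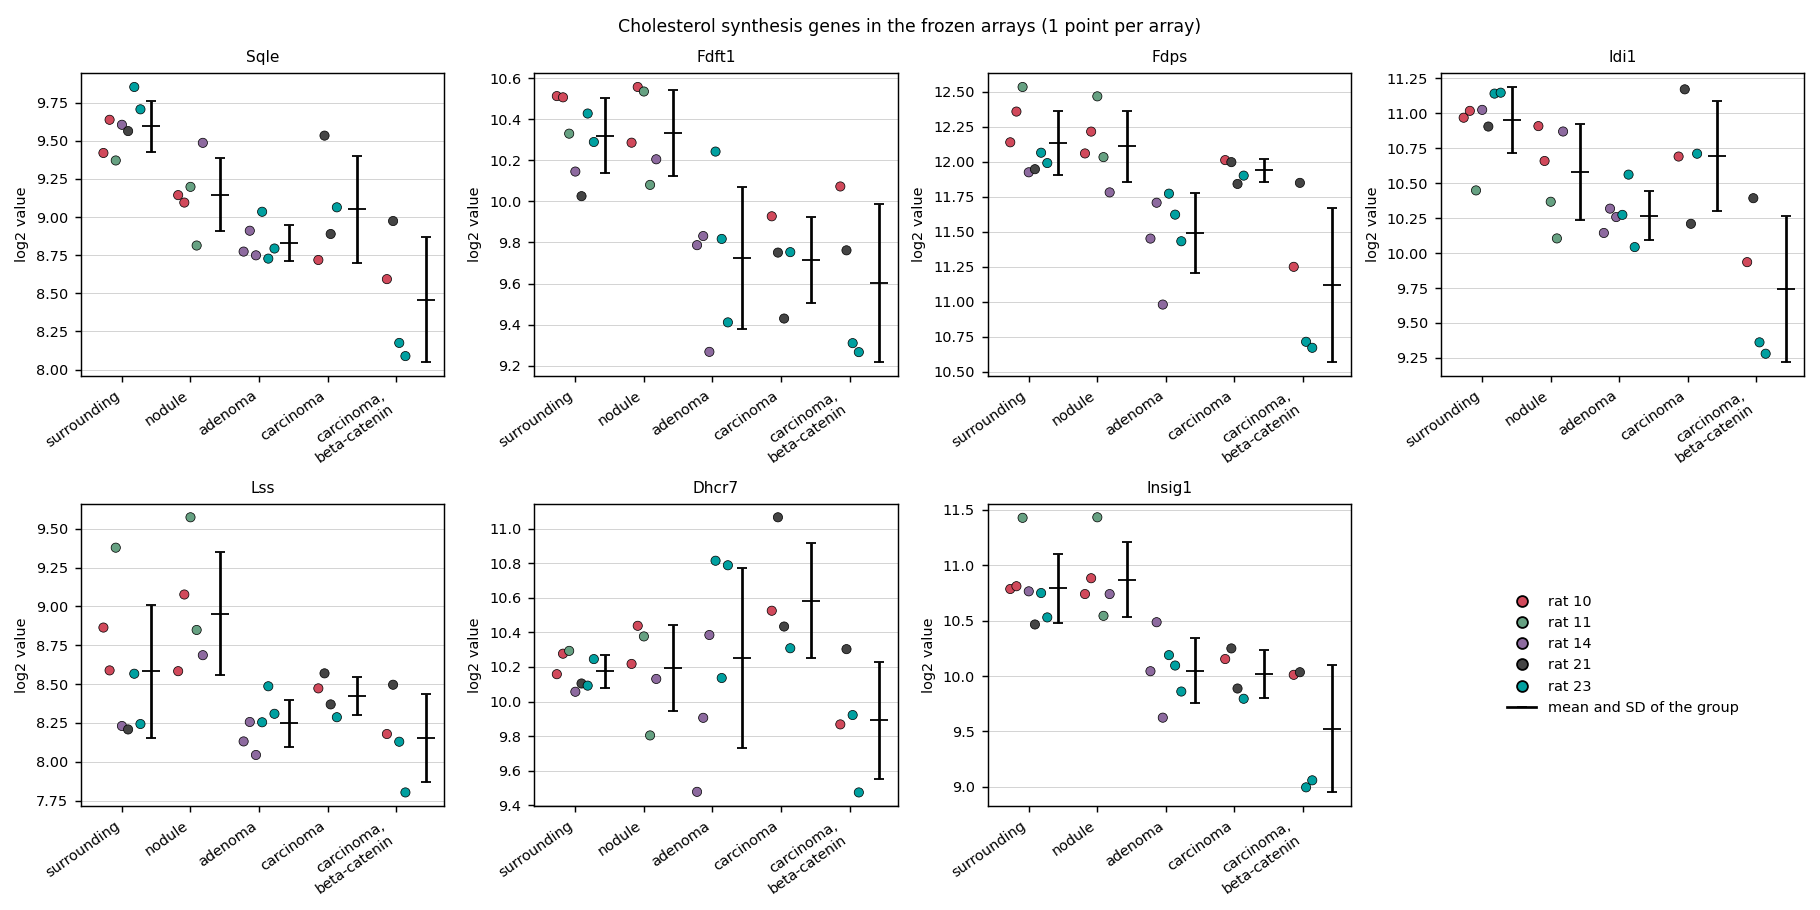
Log2 value of the 7 members in each of the 26 frozen arrays, by group, with the mean and SD beside the points and colours for the 5 rats. Sqle and Fdps in adenomas lie below all 7 surrounding arrays, and the lowest values of Sqle, Fdps, Idi1 and Insig1 are those of beta-catenin carcinomas 3 and 4, both from rat 23.

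Idi1, which isomerizes the first isoprenoid unit, lay between 10.45 and 11.15 in frozen surrounding liver, with a median of 11.02. Its values were 10.91, 10.66, 10.37, 10.11 and 10.87 in nodules and 10.04 to 10.56 in adenomas, with a median of 10.27. Unlabelled carcinomas had 10.69, 11.17, 10.21 and 10.71, and beta-catenin carcinomas 9.94, 10.39, 9.36 and 9.28. Every beta-catenin carcinoma lay below every surrounding array, and the surrounding array of rat 11 (10.45) lay among the adenomas. The group means ran from surrounding liver (10.95 ± 0.24, SD, n = 7) over unlabelled carcinomas (10.70 ± 0.39, n = 4), nodules (10.58 ± 0.34, n = 5) and adenomas (10.27 ± 0.18, n = 6) to beta-catenin carcinomas (9.74 ± 0.52, n = 4). By limma, Idi1 fell by 0.71 ± 0.17 (standard error) in adenomas (adjusted p = 0.0052) and by 1.30 ± 0.18 in beta-catenin carcinomas (2.46-fold lower, adjusted p = 6.05e-05), both against surrounding liver. The neighbours in this order that were tested were surrounding liver and unlabelled carcinomas (-0.40 in the latter, adjusted p = 0.178), adenomas and nodules (-0.49, adjusted p = 0.26) and beta-catenin carcinomas and adenomas (-0.59, adjusted p = 0.0533), and none passed the threshold of 0.05.

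Fdps, which builds farnesyl diphosphate, the branch point to sterols and other isoprenoids, lay between 11.92 and 12.53 in frozen surrounding liver, with a median of 12.06. Nodules had 12.06, 12.22, 12.47, 12.03 and 11.78, and adenomas 10.98 to 11.77 with a median of 11.54. Unlabelled carcinomas were close together at 12.01, 12.00, 11.84 and 11.90, and beta-catenin carcinomas had 11.25, 11.85, 10.71 and 10.67. Adenomas and beta-catenin carcinomas therefore lay below all surrounding arrays, and unlabelled carcinomas overlapped with them. Fdps fell by 0.99 ± 0.16 in beta-catenin carcinomas against surrounding liver (1.99-fold, adjusted p = 0.000312 by limma). In adenomas the difference of the means was -0.64, the change fitted within rats was -0.40 ± 0.16, and it did not pass (adjusted p = 0.0717). Fdps passed between beta-catenin carcinomas and adenomas (-0.59 ± 0.18, adjusted p = 0.0364), where their ranges overlapped and 1 rat had both lesion types. Of its means, surrounding liver (12.14 ± 0.23, SD, n = 7), nodules (12.11 ± 0.25, n = 5), unlabelled carcinomas (11.94 ± 0.08, n = 4), adenomas (11.49 ± 0.29, n = 6) and beta-catenin carcinomas (11.12 ± 0.55, n = 4), the last pair was the only tested pair of neighbours to pass.

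Fdft1, squalene synthase, lay between 10.03 and 10.51 in frozen surrounding liver, with a median of 10.33, and its nodules overlapped with these at 10.29, 10.56, 10.54, 10.08 and 10.21. Adenomas had 9.27 to 10.24 with a median of 9.80, unlabelled carcinomas 9.93, 9.75, 9.43 and 9.75, and beta-catenin carcinomas 10.07, 9.76, 9.31 and 9.27. All 4 unlabelled carcinomas lay below all surrounding arrays, and beta-catenin carcinoma 1 overlapped with them. Against surrounding liver, Fdft1 fell by 0.46 ± 0.15 in adenomas (adjusted p = 0.0346), by 0.58 ± 0.17 in unlabelled carcinomas (adjusted p = 0.0254) and by 0.70 ± 0.16 in beta-catenin carcinomas (adjusted p = 0.00408). The means of the 3 tumour groups, 9.73 ± 0.35, 9.72 ± 0.21 and 9.60 ± 0.39 (SD, n = 6, 4 and 4), differed by less than their spread.

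Sqle, squalene epoxidase, catalyses the oxidation that commits squalene to sterols. It lay between 9.37 and 9.85 in frozen surrounding liver, with a median of 9.61. Nodules had 9.14, 9.10, 9.20, 8.81 and 9.49, and adenomas 8.73 to 9.03 with a median of 8.78. Unlabelled carcinomas had 8.72, 9.53, 8.89 and 9.06, and beta-catenin carcinomas 8.59, 8.97, 8.17 and 8.09. Adenomas and beta-catenin carcinomas lay below all surrounding arrays, and of the unlabelled carcinomas replicate 2 overlapped with them. Sqle was the member with the lowest p in each of the 3 comparisons of frozen tumours with surrounding liver, with falls of 0.80 ± 0.14 in adenomas (1.75-fold, adjusted p = 0.000489), 0.67 ± 0.15 in unlabelled carcinomas (1.59-fold, adjusted p = 0.00761) and 1.20 ± 0.15 in beta-catenin carcinomas (2.30-fold, adjusted p = 2.61e-05). In nodules it was lower in 3 of 3 rats, by -0.33 ± 0.15 in the fit, and did not pass (adjusted p = 0.342). The means ran from surrounding liver (9.59 ± 0.17, SD, n = 7) over nodules (9.15 ± 0.24, n = 5), unlabelled carcinomas (9.05 ± 0.35, n = 4) and adenomas (8.83 ± 0.12, n = 6) to beta-catenin carcinomas (8.46 ± 0.41, n = 4), and no tested pair of neighbours passed.

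Lss, lanosterol synthase, did not pass in any comparison. Its represented probe set in frozen tissue lay between 8.21 and 9.38 in surrounding liver, with a median of 8.57, and between 7.80 and 9.57 in the lesions. The highest value in each of surrounding liver and nodules came from rat 11, at 9.38 and 9.57. Its 2 probe sets did not move together (r = 0.454 over 26 frozen arrays and 0.484 over 18 FFPE arrays, a description across arrays that share rats). In adenomas they gave -0.10 and -0.35, in unlabelled carcinomas -0.11 and 0.25, and in beta-catenin carcinomas -0.35 and 0.11, so the level of Lss is uncertain here.

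Dhcr7, 7-dehydrocholesterol reductase, did not pass in any comparison either. Surrounding liver was tight at 10.06 to 10.29, with a median of 10.16. Adenomas spread from 9.48 to 10.81 with a median of 10.26. Unlabelled carcinomas had 10.53, 11.07, 10.43 and 10.31, all above every surrounding array, and beta-catenin carcinomas had 9.87, 10.30, 9.92 and 9.47. The fitted changes against surrounding liver were 0.24 in adenomas, 0.25 in unlabelled carcinomas and -0.38 in beta-catenin carcinomas, and none passed (adjusted p = 0.379, 0.481 and 0.204 by limma).

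Insig1, the sterol sensor, lay between 10.47 and 11.43 in frozen surrounding liver, with a median of 10.76. Nodules had 10.74, 10.88, 11.43, 10.54 and 10.74, and adenomas 9.62 to 10.49 with a median of 10.07. Unlabelled carcinomas had 10.15, 10.25, 9.89 and 9.79, and beta-catenin carcinomas 10.01, 10.03, 8.995 and 9.06. All 8 carcinomas lay below all surrounding arrays, and 1 adenoma of rat 14 (10.49) reached the lowest surrounding array. Insig1 fell by 0.53 ± 0.19 in adenomas (adjusted p = 0.0409), by 0.74 ± 0.20 in unlabelled carcinomas (1.67-fold, adjusted p = 0.0193) and by 1.16 ± 0.19 in beta-catenin carcinomas (2.23-fold, adjusted p = 0.000336). Its means were 10.87 ± 0.34 in nodules, 10.79 ± 0.31 in surrounding liver, 10.05 ± 0.29 in adenomas, 10.02 ± 0.21 in unlabelled carcinomas and 9.53 ± 0.57 in beta-catenin carcinomas (SD, n = 5, 7, 6, 4 and 4). Of the neighbours, surrounding liver and adenomas passed, and the other tested pairs did not.

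The second probe sets of Fdft1 and Idi1 moved with the first (r = 0.912 and 0.941 over the 26 frozen arrays). In beta-catenin carcinomas they gave -0.84 for Fdft1 and -1.49 for Idi1 against surrounding liver. In unlabelled carcinomas they gave -0.57 and -0.61, and in frozen adenomas -0.58 and -0.98. The second Idi1 probe set passed in unlabelled carcinomas (adjusted p = 0.0348 by limma across 20826 probe sets), where the first did not. By this probe set all adenomas (highest 9.03) lay below all surrounding arrays (lowest 9.48). By the second Fdft1 probe set all beta-catenin carcinomas did too (highest 8.32, lowest surrounding array 8.76). In FFPE tissue the r of the pairs was 0.405 for Fdft1 and 0.865 for Idi1.

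**Figure D2:**
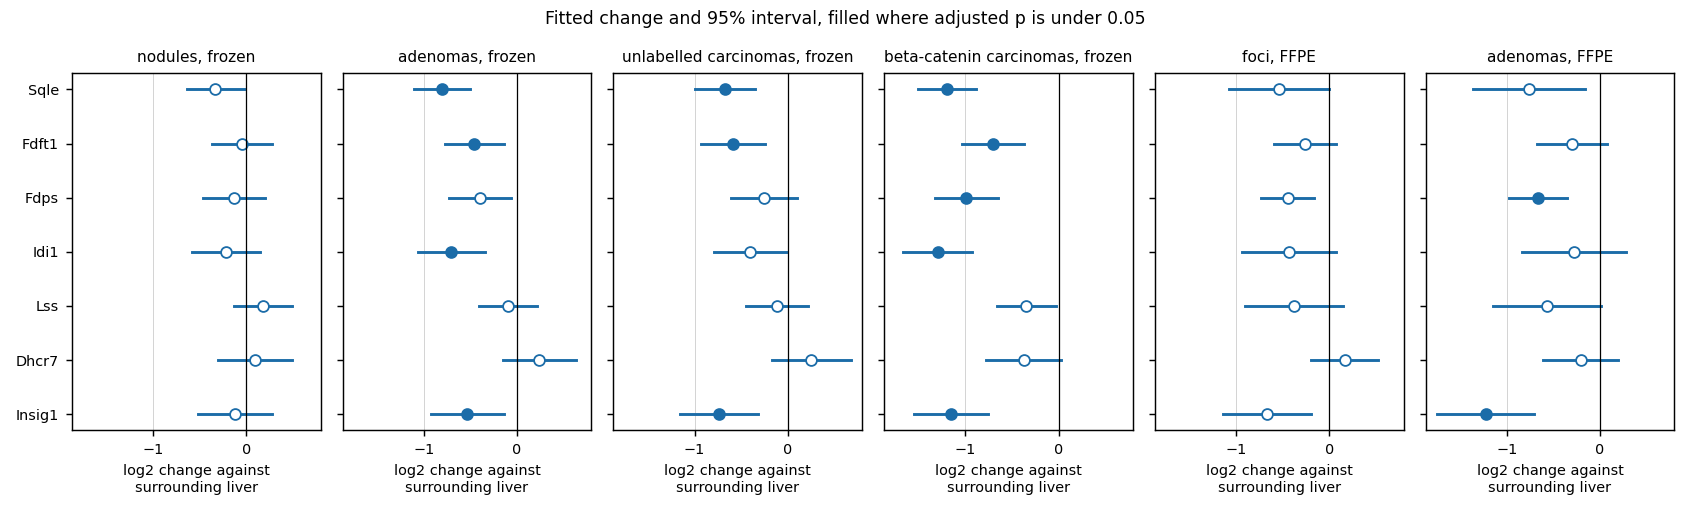
Fitted log2 change of the 7 members against surrounding liver of the same fixation, with 95% intervals, in 4 frozen and 2 FFPE comparisons, filled where the adjusted p was under 0.05. The filled points number 0 in nodules, 4 in frozen adenomas, 3 in unlabelled carcinomas, 5 in beta-catenin carcinomas, 0 in foci and 2 in FFPE adenomas, and all of them lie below 0.

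Nodules were compared with surrounding liver to see whether the genes had moved in the earliest frozen lesions. None of the 7 members was called by limma, where 0.225% of all genes were. At an unadjusted p under 0.05 were 1 of 7 members, Sqle, and 1811 of 14217 genes. The members' changes ran from -0.33 for Sqle to 0.18 for Lss with a median of -0.12, beside 0.017 over all genes. The 95% intervals reached down to -0.64 for Sqle and -0.58 for Idi1, so falls of up to these sizes lay within them.

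Frozen adenomas had lower levels of Sqle, Idi1, Insig1 and Fdft1 than surrounding liver. These 4 of 7 members were called lower and 0 higher, where 9.57% of all genes were called lower and 25.0% in either direction. The median of the members was -0.46, beside 0.022 over all genes. Fdps and Sqle did not overlap with surrounding liver, as did 3.55% of genes in this direction. Each of the 4 called members was lower in 2 of 2 rats with both tissues. Leaving out 1 array (adenoma 3 or 6, surrounding array 4, 6 or 7, or nodule 5) left 2 members called.

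Unlabelled carcinomas had lower Insig1, Sqle and Fdft1, 3 of 7 members, where 6.91% of all genes were lower and 11.4% were called in either direction. The median change was -0.40, beside -0.018 over all genes, and each of the 3 was lower in 3 of 3 rats. Fdft1 and Insig1 lay below, and Dhcr7 above, all surrounding arrays, where 13.5% of genes did not overlap in either direction. These calls rested on few arrays. No member was called without unlabelled carcinoma 1 (Sqle -0.59, adjusted p = 0.0688), and 1, Sqle, was called without unlabelled carcinoma 4. Without the 3 arrays against their label, which leaves 2 unlabelled carcinomas, none was called, with changes of -0.50 for Sqle (adjusted p = 0.147) and -0.70 for Insig1 (adjusted p = 0.177). With the block set by control set and not by rat, 1 was called.

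Beta-catenin carcinomas had the lowest mean of the 5 frozen groups in all 7 members. Idi1, Sqle, Insig1, Fdps and Fdft1, 5 of 7 members, were called lower, where 9.58% of all genes were lower and 17.3% were called in either direction. The median was -0.99, beside -0.0098 over all genes, and all 7 changes were negative, from -1.30 for Idi1 to -0.35 for Lss. Idi1, Sqle, Insig1 and Fdps did not overlap with surrounding liver, as did 5.96% of genes in this direction. The 5 called members were lower in 3 of 3 rats. Leaving out any single array left 5 or 6 members called, and 5 were called without the 3 arrays against their label (Idi1 -1.42, Sqle -1.33).

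Beta-catenin and unlabelled carcinomas were then compared with each other. No member passed, and 0.0% of all genes did by limma. At an unadjusted p under 0.05 there were 723 genes and 4 of 7 members, namely Idi1 (-0.89, 95% interval -1.31 to -0.48), Fdps (-0.73, -1.11 to -0.35), Dhcr7 (-0.63, -1.08 to -0.18) and Sqle (-0.53, -0.88 to -0.18), with adjusted p-values of 0.286 to 0.695. All 7 changes were negative, with a median of -0.53 beside 0.0098 over all genes. The intervals of Insig1 (-0.86 to 0.03), Lss (-0.59 to 0.12) and Fdft1 (-0.49 to 0.25) held 0. Dhcr7 did not overlap between the groups, as did 2.81% of genes in either direction. Without beta-catenin carcinoma 2, Fdps (-1.08, adjusted p = 0.0223) and Idi1 (-1.20, adjusted p = 0.0325) were called. Without the 3 arrays against their label, Idi1 (-1.20, adjusted p = 0.00657) and Sqle (-0.83, adjusted p = 0.0373) were called, among 151 genes. Those 3 arrays were chosen by measured values, and the comparison then rests on 3 beta-catenin and 2 unlabelled carcinomas of rats 21 and 23.

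**Figure D3:**
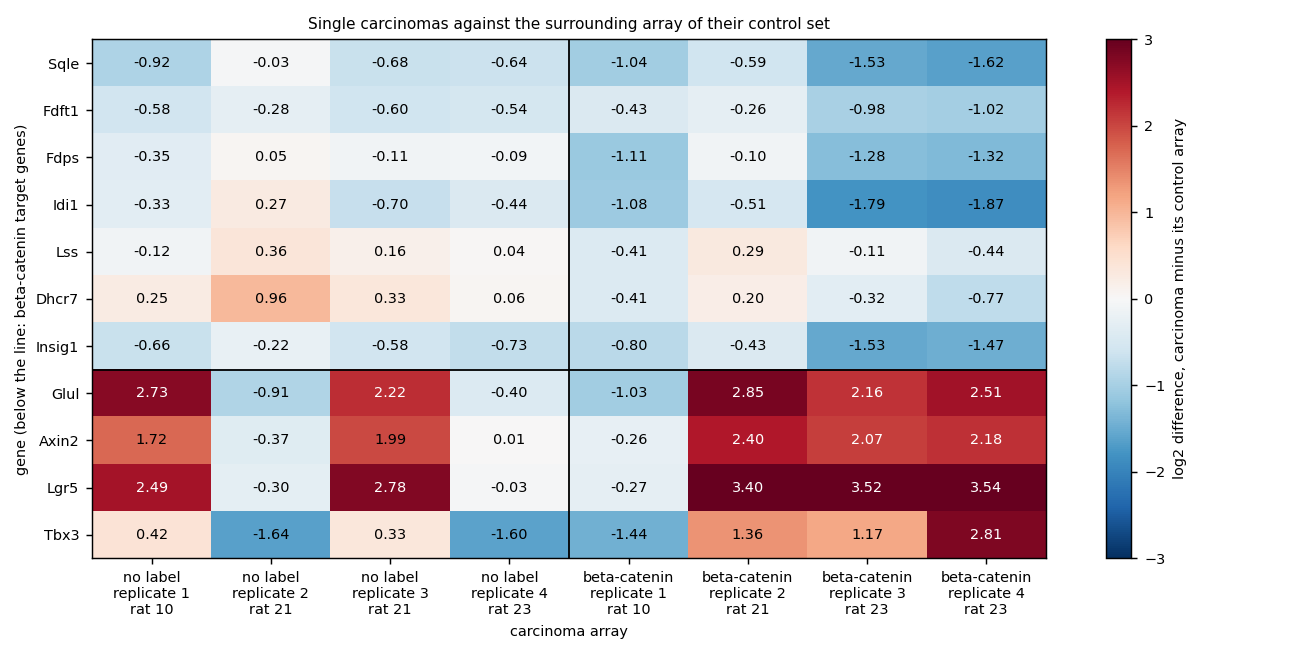
Log2 difference of each of the 8 carcinomas from the surrounding array of its own control set, for the 7 members and, below the line, 4 beta-catenin target genes, on a colour scale centred on 0. Beta-catenin carcinomas 3 and 4 have the largest falls of Idi1 (-1.79 and -1.87), and unlabelled carcinoma 2 is the array with the fewest members below its control.

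Set singly against the surrounding array of the same control set, the carcinomas differed from each other within each label. Beta-catenin carcinomas 3 and 4, both of rat 23, were below their control in all 7 members, with medians of -1.28 and -1.32. Unlabelled carcinoma 4 of the same rat, set against the same control array, had 5 members below it and a median of -0.44, with Idi1 at -0.44 and Fdps at -0.09. In rat 10, beta-catenin carcinoma 1 was below its control in 7 members with a median of -0.80, and unlabelled carcinoma 1 in 6 with a median of -0.35. In rat 21, beta-catenin carcinoma 2 was below its control in 5 members with a median of -0.26, between unlabelled carcinoma 3 (5 members, -0.58) and unlabelled carcinoma 2 (3 members, 0.05).

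Unlabelled carcinoma 2 had Dhcr7 at 0.96, Lss at 0.36 and Idi1 at 0.27 above its control. Between labels within a rat, Idi1 differed by -0.76 in rat 10, -0.30 in rat 21 and -1.39 in rat 23, and Fdps by -0.76, -0.07 and -1.21. Insig1 differed by -0.14, -0.03 and -0.77. By the means of a label in a rat, these differences had 1 sign in the 3 rats for Idi1, Fdps, Insig1, Sqle and Dhcr7. They were widest in rat 23 for the first 4, while Fdft1 was higher in the beta-catenin carcinomas of rats 10 and 21 and lower in rat 23. In rat 21 beta-catenin carcinoma 2 lay above unlabelled carcinoma 3 in Idi1 (10.39 against 10.21), Sqle (8.97 against 8.89), Insig1 (10.03 against 9.89) and, barely, Fdps (11.849 against 11.841). Dhcr7 lay below it (10.30 against 10.43). In rat 10 both carcinomas are among the 3 arrays against their label.

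Glul, Idi1 and Fdps are set side by side here for each carcinoma, and a link between Glul and the members was not tested. Beta-catenin carcinoma 1, with Glul 1.03 below its control array, had Fdps and Idi1 at -1.11 and -1.08, and beta-catenin carcinoma 2, with Glul 2.85 above, had -0.10 and -0.51. Unlabelled carcinomas 1 and 3, with Glul 2.73 and 2.22 above, had Idi1 at -0.33 and -0.70 and Fdps at -0.35 and -0.11. Beta-catenin carcinomas 3 and 4, with Glul 2.16 and 2.51 above, had Idi1 at -1.79 and -1.87 and Fdps at -1.28 and -1.32. Unlabelled carcinomas 2 and 4, with Glul at -0.91 and -0.40, had Idi1 at 0.27 and -0.44 and Fdps at 0.05 and -0.09.

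Frozen adenomas were also compared with nodules and with both carcinoma groups. Each of these comparisons had 1 rat with both lesion types, rat 14 for nodules and rat 23 for the carcinomas. Lesions of other rats entered only through groups that the rats had in common, such as surrounding liver. Adenomas and nodules gave 0.0% of all genes called (2265 at an unadjusted p under 0.05) and no member, with 3 members (Sqle, Idi1 and Fdft1) at an unadjusted p under 0.05 and changes of -0.47, -0.49 and -0.41. With no block for the rat, 437 of 14217 genes were called in that comparison, among them Insig1, Lss and Fdft1, at -0.82, -0.71 and -0.61. Unlabelled carcinomas and adenomas gave 2.95% of all genes called and no member, with a median of 0.014 beside -0.072 over all genes. Beta-catenin carcinomas were lower than adenomas in 1 member, Fdps, where 8.48% of genes were lower and 13.7% called. The other members had changes of -0.25 to -0.62. This call depended on single arrays. It ranged from 0 to 4 members with 1 array left out, at 0 without adenoma 4, 5 or 6 or beta-catenin carcinoma 3 or 4, at 2 without beta-catenin carcinoma 1, unlabelled carcinoma 3, adenoma 1 or 3 or nodule 4, at 3 without beta-catenin carcinoma 2 and at 4 without surrounding array 5.

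**Figure D4:**
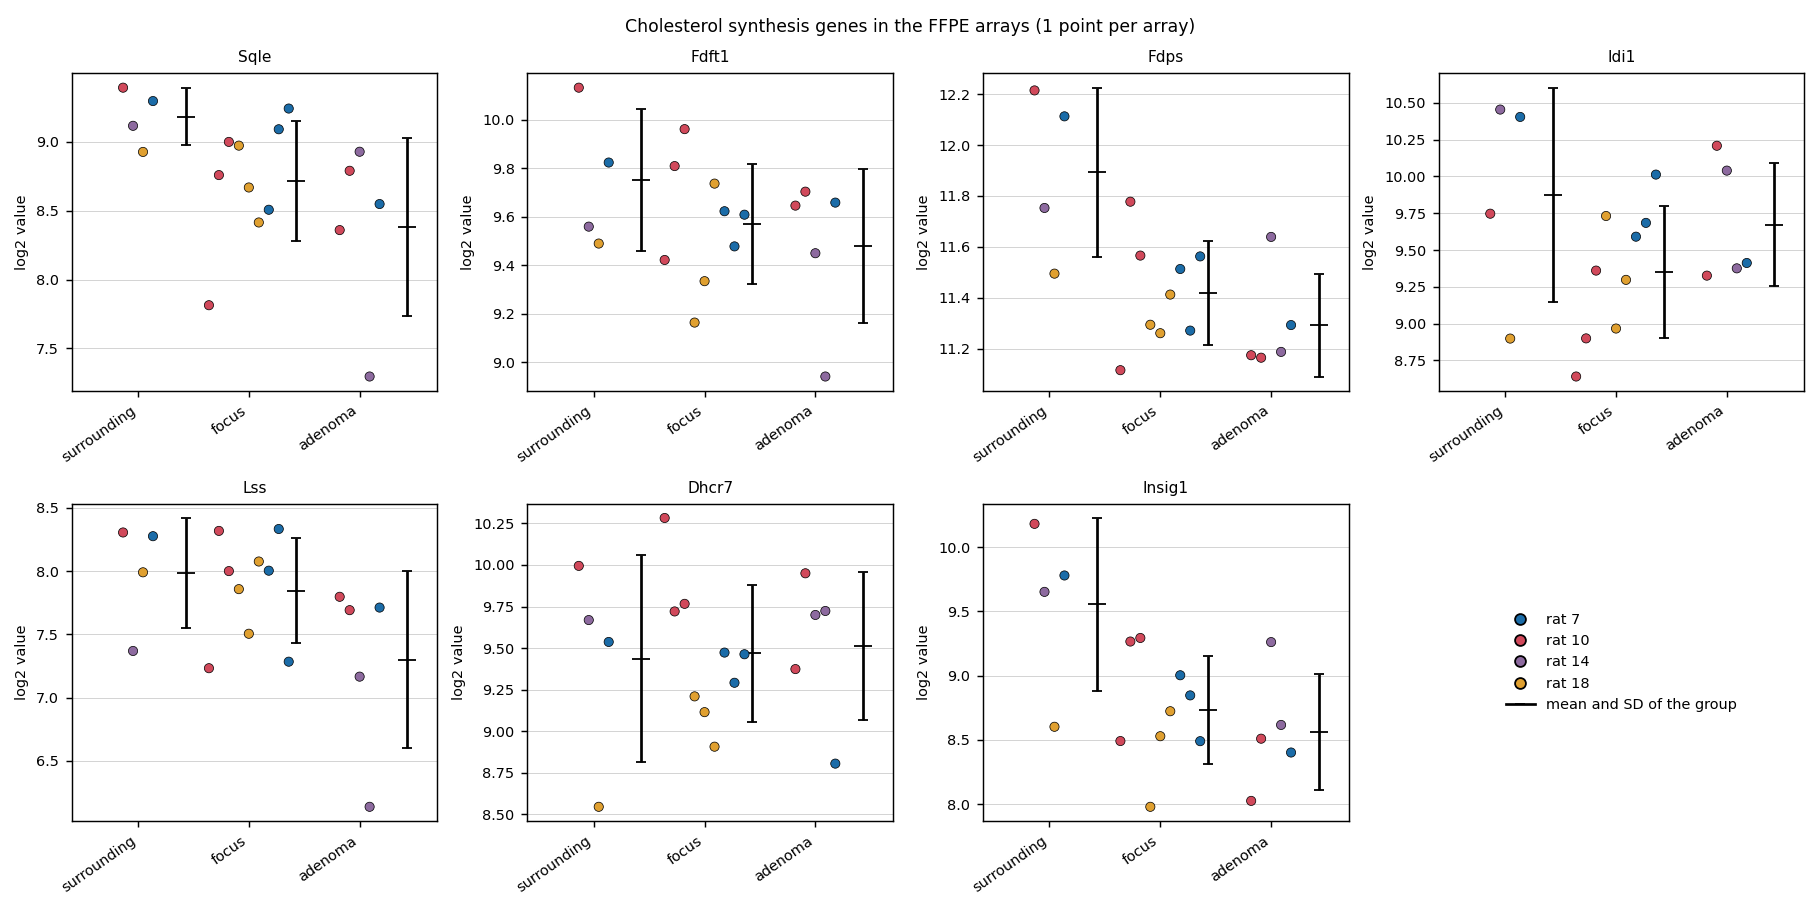
Log2 value of the 7 members in each of the 18 FFPE arrays, by group, with the mean and SD beside the points and colours for the 4 rats. The groups overlap in all 7 members, and the surrounding array of rat 18 is the lowest of its group in 6 of them, all but Lss.

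Foci, the smallest lesions, were compared with surrounding liver in FFPE tissue. None of the 7 members was called, where 3.18% of all genes were. Fdps (-0.45 ± 0.14, adjusted p = 0.0759 by limma) and Insig1 (-0.67 ± 0.23, adjusted p = 0.129) had an unadjusted p under 0.05. So had 1895 of all 14217 genes. Fdps was 11.12 to 11.78 in the 9 foci, with a median of 11.41, against 12.21, 11.75, 11.50 and 12.11 in surrounding liver. Insig1 was 7.98 to 9.29, with a median of 8.72, against 10.18, 9.65, 8.60 and 9.78. In both genes the surrounding array of rat 18 lay among the foci. The median change of the members was -0.43, beside -0.022 over all genes. Fdps was the member called after quantile normalization (-0.47, adjusted p = 0.0471), and 1 member was called without focus 2, surrounding array 2 or FFPE adenoma 3.

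FFPE adenomas had lower Insig1 and Fdps than surrounding liver, 2 of 7 members, where 0.872% of all genes were lower and 2.16% called. Insig1 was 8.03, 8.51, 9.26, 8.62 and 8.40 in adenomas and fell by 1.23 ± 0.25 (2.34-fold, adjusted p = 0.00666 by limma). Fdps was 11.17, 11.16, 11.64, 11.19 and 11.29 and fell by 0.67 ± 0.15 (adjusted p = 0.0154). Both overlapped with the surrounding array of rat 18, a rat without an FFPE adenoma, and were lower in 3 of 3 rats with both tissues. Sqle had 8.36, 8.79, 8.93, 7.30 and 8.55 against 9.39, 9.12, 8.93 and 9.30 in surrounding liver, a change of -0.77 ± 0.29 that did not pass (adjusted p = 0.241). The median of the members was -0.57, beside -0.021 over all genes. No member was called without surrounding array 1 (rat 10), 1 was without surrounding array 4 or adenoma 2, and none was with no block for the rat (Insig1 -0.99, adjusted p = 0.133). Adenomas and foci gave 0.0% of all genes called (633 at an unadjusted p under 0.05), with Insig1 at -0.56 and Dhcr7 at -0.38 among these.

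The remaining members overlapped between all FFPE groups. Idi1 lay between 8.90 and 10.45 in surrounding liver, 8.64 and 10.01 in foci (median 9.36) and 9.33 and 10.21 in adenomas (median 9.41). Its changes were -0.43 ± 0.25 in foci and -0.28 ± 0.27 in adenomas, with 95% intervals down to -0.94 and -0.84. Sqle in foci, at 7.81 to 9.24 with a median of 8.76, had a change of -0.54 ± 0.26. Fdft1 changed by -0.26 ± 0.16 in foci and -0.30 ± 0.18 in adenomas, and Dhcr7 by 0.17 ± 0.17 and -0.21 ± 0.19. Lss, measured here by its other probe set, lay between 7.23 and 8.33 in foci and 6.14 and 7.80 in adenomas, against 7.37 to 8.30 in surrounding liver. None of these changes passed the threshold.

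**Figure D5:**
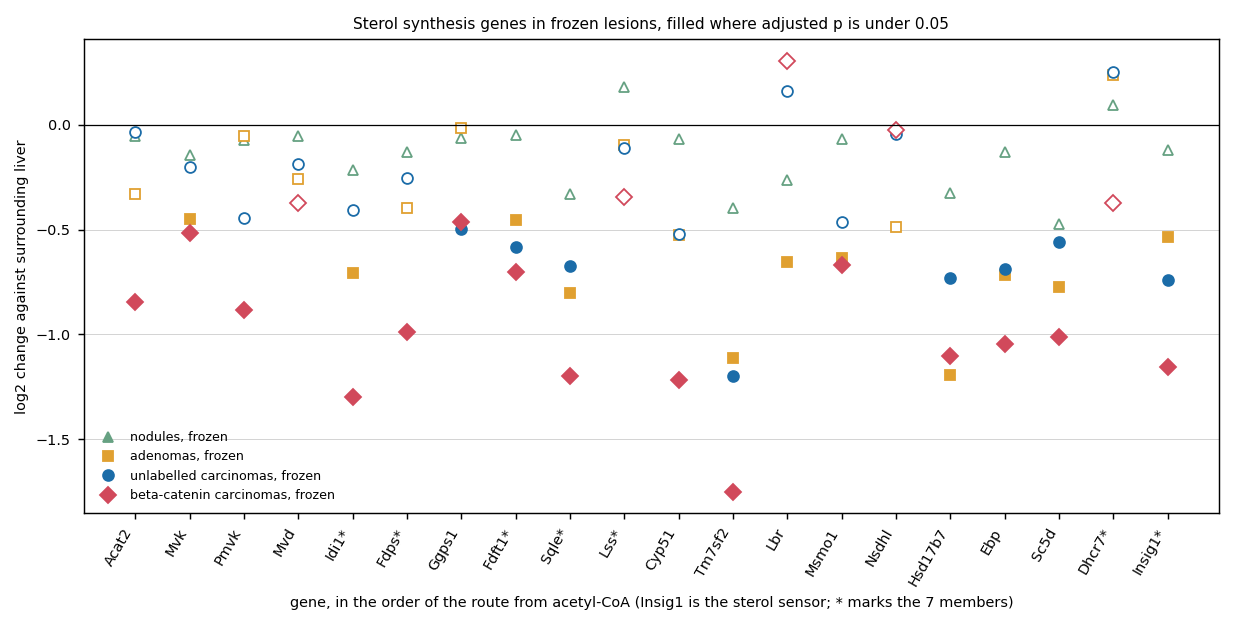
Fitted log2 change against surrounding liver of 20 genes along the route from acetyl-CoA, with Ggps1 on the branch to other isoprenoids and Insig1 at the end as the sensor, in nodules, adenomas and both carcinoma groups of the frozen set, filled where the adjusted p was under 0.05. Tm7sf2 has the largest fall (-1.75 in beta-catenin carcinomas), and no filled point lies above 0.

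The other enzymes of the route were followed as a list of 15 genes, of which 13 were measured. In frozen tissue 0 were called in nodules, 8 were lower in adenomas, 5 in unlabelled carcinomas and 10 in beta-catenin carcinomas, and none was higher. The shares of all genes lower were 9.57% in adenomas, 6.91% in unlabelled carcinomas and 9.58% in beta-catenin carcinomas. The medians of the list were -0.075 in nodules, -0.53 in adenomas, -0.46 in unlabelled carcinomas and -0.85 in beta-catenin carcinomas. Falls in beta-catenin carcinomas included Tm7sf2, a sterol C14 reductase (-1.75 ± 0.19, adjusted p = 1.1e-05), Cyp51, the lanosterol demethylase (-1.22 ± 0.18), and Hsd17b7, a sterol ketoreductase (-1.11 ± 0.18). In adenomas Hsd17b7 (-1.20 ± 0.18), Tm7sf2 (-1.11 ± 0.18) and Sc5d, the sterol C5 desaturase (-0.78 ± 0.15), had the largest falls. In unlabelled carcinomas these were Tm7sf2 (-1.20 ± 0.19), Hsd17b7 (-0.73 ± 0.19) and Ebp, the sterol isomerase (-0.69 ± 0.16). With 1 array left out, the counts lower were 6 to 9, 1 to 7 and 8 to 10 in adenomas, unlabelled and beta-catenin carcinomas, and with the control set as the block they were 6, 1 and 8. The count in unlabelled carcinomas was 1 without unlabelled carcinoma 4 and 3 without unlabelled carcinoma 1.

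In FFPE tissue Sc5d was lower in foci (-0.49 ± 0.13, adjusted p = 0.0296), 1 of 13. Cyp51 (-0.68 ± 0.16), Sc5d (-0.57 ± 0.14) and Tm7sf2 (-0.83 ± 0.22) were lower in adenomas, 3 of 13. Of all genes, 3.18% were called in foci in either direction, and 0.872% were lower in adenomas. The calls in this list rested on single arrays. None of the 13 was called in foci without surrounding array 1 or 4 or focus 7, and none in adenomas without surrounding array 1, 2 or 4 or adenoma 4 or 5. Tm7sf2 in adenomas lost its call with 15 of the 18 arrays left out in turn (adjusted p up to 0.199). Between beta-catenin carcinomas and adenomas, with 1 rat that had both, 4 were lower, where 8.48% of all genes were. Pmvk, phosphomevalonate kinase (-0.83 ± 0.21), and Cyp51 (-0.69 ± 0.20) were at the head. With 1 array left out 0 to 5 were lower in this comparison. The count was 0 without beta-catenin carcinoma 3 or 4, 1 without adenoma 5 and 2 without adenoma 4 or 6. Lbr, a nuclear envelope protein with sterol reductase activity, was higher (0.96 ± 0.19). It was also higher between unlabelled carcinomas and adenomas (0.82 ± 0.21), where 1 rat had both and 12 of the 26 arrays ended the call when left out.

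Regulators moved less uniformly. Srebf2 fell by 0.54 ± 0.14 in frozen adenomas (adjusted p = 0.00757) and had changes of 0.09 and 0.13 in unlabelled and beta-catenin carcinomas that did not pass (adjusted p = 0.768 and 0.61). It was higher in beta-catenin carcinomas than in adenomas (0.67 ± 0.16, adjusted p = 0.0113), where 1 rat had both lesion types. Of the 8 sensing and regulation genes, all measured, adenomas had 3 lower, Srebf2, Insig2 (-0.82 ± 0.22), a relative of Insig1, and Nr1h2 (-0.81 ± 0.22), which encodes the oxysterol receptor LXR beta. Mbtps2, a protease that releases SREBP, was higher (0.76 ± 0.16). Over all genes, 25.0% were called in adenomas, 11.4% in unlabelled and 17.3% in beta-catenin carcinomas, in either direction. Nr1h2 was higher in unlabelled (0.72 ± 0.23) and beta-catenin carcinomas (0.94 ± 0.22), and Srebf1 was lower in the latter (-0.48 ± 0.16). The Nr1h2 call in unlabelled carcinomas was lost with 21 of the 26 arrays left out in turn (adjusted p up to 0.206), and the Srebf1 call without surrounding array 2, 3, 4, 6 or 7 or beta-catenin carcinoma 1, 3 or 4 (up to 0.18). In FFPE foci, where 3.18% of all genes were called, Mbtps2 was higher (1.16 ± 0.29), and not called without surrounding array 1, 3 or 4.

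Of 7 measured genes of cholesterol uptake and handling, of 12 listed, adenomas had 3 lower, namely the endocytic receptor Lrp1 (-0.77 ± 0.16), the HDL receptor Scarb1 (-0.59 ± 0.18) and the sterol carrier Stard4 (-0.46 ± 0.11). Unlabelled carcinomas had 1 lower, Lrp1 (-0.67 ± 0.17), and beta-catenin carcinomas, nodules and both FFPE lesions none. Of all genes, 9.57% were lower in frozen adenomas, 6.91% in unlabelled and 9.58% in beta-catenin carcinomas. Scarb1 in adenomas was not called without surrounding array 7 or adenoma 4, nor Lrp1 in unlabelled carcinomas without unlabelled carcinoma 1 or surrounding array 5. Stard4 was called in unlabelled carcinomas without surrounding array 2 or 7 or unlabelled carcinoma 1. In beta-catenin carcinomas Scarb1 was called without surrounding array 1, adenoma 4 or beta-catenin carcinoma 1, and Lrp1 without the last. Of 8 efflux and LXR target genes, all measured, adenomas had 3 lower, Cyp7a1, the rate-limiting enzyme of bile acid synthesis (-1.93 ± 0.67), Lcat, which esterifies plasma cholesterol (-0.95 ± 0.14), and the efflux pump Abca1 (-0.35 ± 0.11). Lcat and Abca1 were lower in both carcinoma groups (Abca1 -0.59 ± 0.12 and -0.84 ± 0.11). Lcat was lower in FFPE foci (-0.51 ± 0.14) and FFPE adenomas (-0.66 ± 0.15), where 3.18% and 2.16% of all genes were called. In frozen adenomas Cyp7a1 lost its call without surrounding array 1, 2, 4, 6 or 7 or adenoma 3, 4 or 5, and Abca1 without surrounding array 4 or adenoma 6. Lcat lost it in unlabelled carcinomas without unlabelled carcinoma 4 and in FFPE adenomas without surrounding array 1, 2 or 4 or adenoma 2 or 5. In FFPE foci 9 of the 18 arrays ended the Lcat call when left out (adjusted p up to 0.287).

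Markers of other cell types and of dividing cells moved with some of the same comparisons. The shares of all genes called against surrounding liver were 25.0% in frozen adenomas, 11.4% in unlabelled and 17.3% in beta-catenin carcinomas. They were 3.18% in FFPE foci, 2.16% in FFPE adenomas and 0.225% in nodules. In nodules the called marker genes were the proliferation genes Cdk1 (1.45 ± 0.27) and Mki67 (1.33 ± 0.25), both higher (adjusted p = 0.0315 by limma). With the control set as the block, 0 genes were called in nodules. Of 8 proliferation genes, 7 were higher in each of frozen adenomas, unlabelled and beta-catenin carcinomas, with mean levels per array of 5.05 to 5.92 in surrounding liver, 6.55 to 7.20 in adenomas, 6.04 to 7.48 in unlabelled and 6.20 to 7.16 in beta-catenin carcinomas. Of 8 measured macrophage genes, 3, 3 and 5 were lower in these groups, with mean levels of 9.15 to 9.78 in surrounding liver, 8.41 to 9.29 in adenomas, 8.29 to 9.09 in unlabelled and 8.08 to 9.07 in beta-catenin carcinomas. Of 4 cholangiocyte genes, 2 were higher in frozen and 2 in FFPE adenomas, and the frozen levels were 5.64 to 6.42 in surrounding liver and 6.65 to 8.66 in adenomas. In FFPE foci 3 macrophage genes were lower and 1 proliferation gene was higher. Of the 9 stellate cell and fibroblast genes, 3 were higher in FFPE foci and 3 in FFPE adenomas, 1 was lower in unlabelled carcinomas, and 1 was higher and 1 lower in beta-catenin carcinomas. Of 6 endothelial genes 1 was lower in beta-catenin carcinomas, of 5 lymphocyte genes 1 was lower in frozen adenomas, and of 4 blood cell genes 2 were lower in frozen adenomas and 1 in beta-catenin carcinomas. Of the 7 hepatocyte genes, Fgb, a fibrinogen chain, was lower in both carcinoma groups (-0.90 ± 0.20 and -1.32 ± 0.19) and Apoa1, the main HDL protein, was higher in frozen adenomas (1.13 ± 0.27). Ttr, a thyroid hormone carrier, was lower in frozen adenomas and unlabelled carcinomas (-0.42 ± 0.10 and -0.41 ± 0.11), as was Serpina1 in the former. In FFPE foci and adenomas Apoa1 was higher and Fgb lower. The part of these cells in the results on the members was not tested.

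The members varied together to differing degrees. Over the 26 frozen arrays the 21 pairs of members had r from 0.09 to 0.91 with a median of 0.67, and over the 18 FFPE arrays from -0.23 to 0.89 with a median of 0.41, as a description across arrays that share rats and lesion types. Of the other genes, those most like the mean of the members over the frozen arrays were Cyp2c7, a cytochrome (r = 0.904), Cyp51 (0.896), Tm7sf2 (0.872), Acss2, which makes acetyl-CoA from acetate (0.868), Adh5 (0.859) and Prodh2 (0.849). Cd276 (-0.843) and Tead1 (-0.797) were the least like it. Over the FFPE arrays Cyp51 ranked 3 of 14210 (r = 0.815), Tm7sf2 30 (0.732), Acss2 101 (0.642) and Cyp2c7 187 (0.602). Prodh2 ranked 714 (0.475), Adh5 1087 (0.424), Tead1 10522 (-0.172) and Cd276 14188 (-0.698).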

How the data were processed

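Total RNA of 44 liver samples of 7 rats entered the comparisons, measured on rat expression arrays of 1 colour (3′ IVT labelling, stated for conventionally isolated samples, per the labels' protocols). The log2 values of 31042 probe sets were used as deposited, and their summarization and normalization are not given in the sources used here. Of these, 20826 name 1 gene symbol, and those naming several (436) or none (9780) were not used. A gene with more than 1 probe set took its brightest, by the mean over the arrays of a fixation, which gave 14217 genes. For Lss these differ between frozen and FFPE tissue.

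Separate limma models (limma 3.58.1, R 4.3.3, lmFit and eBayes with trend) were fitted to frozen and FFPE arrays, with fixed effects of group and rat. This left 17 residual degrees of freedom for frozen arrays and 12 for FFPE arrays. Genes with a p under 0.05 after Benjamini-Hochberg adjustment across all 14217 were called. Rats were taken from the sample titles and control sets, since the source-animal field gives 4 numbers for 1 rat. The rat pairs lesions with surrounding liver of the same animal. As a check, array pairs of 1 rat deviated together from their group means with a median r of 0.127 (frozen) and 0.11 (FFPE), against -0.025 and -0.04 for pairs of different rats. A fitted change can differ from the difference of the group means, because it weighs contrasts within rats. The fit was tested on simulated data. Samples named C43 normal (3 arrays) entered no comparison. The source name of FFPE adenoma 4 reads surrounding tissue, and the array was kept under its group label.

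Named genes were all members, the genes called in 4 lists (other sterol synthesis, uptake and handling, sensing and regulation, efflux and LXR targets), at most 3 per list and comparison by size of change, Srebf2 throughout, genes of the label check, and the 6 most and 2 least like the members' mean. Marker lists held hepatocyte, macrophage, stellate cell and fibroblast, endothelial, cholangiocyte, lymphocyte, blood cell and proliferation genes. The members and lists were chosen with earlier results of these data known. Alternatives were other blocks, probe set choices, quantile normalization, a filter on dim genes, each array left out, and, chosen after seeing the data, 3 carcinomas left out.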

Additional observations from a re-analysis of the deposited data

Results flagged for a closer look

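In 80 combinations of a probe set and a group of 4 to 9 arrays, tested for an array far from the rest, 4 were found. Chance flags about 1 in 20 of the combinations, so their number is no more than chance gives. Rat 11's single frozen surrounding array had the lowest Idi1 (10.45, next 10.91) and the highest Insig1 (11.43, next 10.81) of its group. FFPE adenoma 3, of rat 14, had the highest Fdps (11.64, next 11.29) of 5 FFPE adenomas, and focus 2, of rat 10, the highest value of the second Lss probe set (8.12, next 7.33) of 9 foci.

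Arrays named C43 normal entered no comparison, and their labels also call them surrounding tissue under phenobarbital. Dhcr7 was 10.33 and 10.34 in the 2 frozen ones, above all 7 frozen surrounding arrays (highest 10.29). In the FFPE array, Idi1 was 11.33 and Sqle 9.74, above all 4 FFPE surrounding arrays (highest 10.45 and 9.39). The second Idi1 probe set in that array, at 9.22, lay within the surrounding range of 7.75 to 9.77. Both Lss probe sets in that array, at 6.69 and 6.98, lay below all FFPE surrounding arrays (lowest 7.37 and 7.26). In frozen tissue the lower C43 values of Insig1 (10.41) and of the dimmer Lss probe set (6.50) were below the surrounding range (lowest 10.47 and 6.59). The higher frozen C43 value of the second Idi1 probe set (10.12) was above it (highest 10.07).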

How the results depend on the processing

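The sign of a called member change did not turn under any alternative run. Of 2408 member changes under alternatives, 2289 kept sign and side of the threshold, 45 lost the call, 34 gained it and 40, none called under either setting, turned sign. The cause was not tested.

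Members called against surrounding liver ranged, with 1 array left out, from 2 to 5 in frozen adenomas, 0 to 3 in unlabelled carcinomas, 5 to 6 in beta-catenin carcinomas, 0 to 1 in foci and 0 to 2 in FFPE adenomas, and stayed at 0 in nodules. The range was 0 to 2 between carcinoma groups, 0 to 4 between beta-catenin carcinomas and adenomas, and 0 in the other 3 comparisons. With no replicate block for the rat, 3 were called between adenomas and nodules, 0 between beta-catenin carcinomas and adenomas and 0 in FFPE adenomas. With the rat as a random replicate block the last 2 gave 0 and 1. With the control set as replicate block, unlabelled carcinomas gave 1, and beta-catenin carcinomas against adenomas 0. The latter gave 2 with all probe sets and 3 with the dim genes left out, and foci gave 1 after quantile normalization. Without the 3 carcinomas against their label, unlabelled carcinomas gave 0, the contrast of carcinoma groups 2, and beta-catenin carcinomas against adenomas 3. The blocks changed no other count of members called by over 1.5 times. Counts over all genes moved more: unlabelled carcinomas against adenomas had 419 genes called, 2322 with no block and 0 with the control set, adenomas against nodules 0 and 437 with no block, and nodules against surrounding liver 32 and 93.

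Small uncalled changes turned sign as follows. In nodules, Fdft1 (-0.049) and Insig1 (-0.12) were 0.013 and 0.077 with no block and 0.0011 and 0.0401 with the random block. With 1 array left out, Fdft1 ranged from -0.11 to 0.025 and Dhcr7 (0.096) from -0.0076 to 0.21. Lss in unlabelled carcinomas (-0.11) was 0.06 with the control set and 0.071 with the mean of its probe sets. Between unlabelled carcinomas and adenomas, Lss (-0.014) was 0.18 with no block, 0.14 with the random block, 0.32 with the control set, 0.30 with the mean of its probe sets, 0.11 after quantile normalization and 0.065 without the 3 carcinomas. In that comparison Fdft1 and Insig1 were 0.047 and 0.14 with the control set. With 1 array left out there, Lss ranged from -0.12 to 0.065, Dhcr7 from -0.092 to 0.13, Fdft1 from -0.24 to 0.015 and Fdps from -0.0016 to 0.29. Between beta-catenin carcinomas and adenomas, Lss (-0.25) was 0.11 with the control set and 0.11 with the mean of its probe sets. Dhcr7 in FFPE adenomas was 0.074 with no block, and 0.0405 against foci. Between FFPE adenomas and foci, Fdft1 ranged from -0.12 to 0.0046 and Idi1 from -0.17 to 0.39 with 1 array left out.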
